A study of Mus musculus with 10 samples.

Results

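Acta2, the gene of smooth muscle actin, and 9 genes whose products bind actin or move along it in contractile cells (Myl9, Myh11, Tpm1, Tpm2, Cnn1, Cnn2, Tagln, Synpo2 and Pdlim3) were followed in whole epidermis with and without integrin-linked kinase (ILK). These 10 genes, of 19938 genes with a probe set that carries 1 gene symbol, were chosen by name with the differences between the genotypes on these same arrays already known. Their values and differences are therefore a description, are given without a p value and support nothing. Each of the 10 genes had 1 probe set, and all 10 passed the filter on low values (at least 5 of the 10 arrays with a linear value no lower than 50).

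ILK-deficient mice (K14Cre; Ilk f/f) carried floxed alleles of Ilk on both chromosomes, and ILK-expressing mice (K14Cre; Ilk f/+) carried a floxed and an intact allele. Both genotypes were heterozygous for the KRT14-cre transgene and carried the Ilktm1Star floxed allele, so the ILK-expressing mice were not free of Cre. Cre was driven by the keratin 14 promoter, so inactivation of Ilk was aimed at keratinocytes, and which cells had recombined was not measured here. RNA of epidermis freed from the dermis with dispase at 3 days of age was hybridised to Affymetrix GeneChip Mouse Gene 1.0 ST Arrays, with 1 array for each of 5 ILK-deficient and 5 ILK-expressing mice. The value of a probe set is a log2 intensity, and each difference below is ILK-deficient minus ILK-expressing.

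Smooth muscle actin assembles into filaments that myosin II pulls on when its regulatory light chain is phosphorylated. Tropomyosins, calponins and transgelin lie along those filaments, and PDZ and LIM domain proteins anchor them at Z-discs, dense bodies and adhesions. In skin, smooth muscle actin is known from the muscle of vessel walls and hair erectors, from the sheath around the hair follicle and from myofibroblasts, and its transcription is known to depend on serum response factor (SRF), which binds the CArG box, and on TEAD factors, which bind the M-CAT motif.

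The array medians of all probe sets lay between 7.07 and 7.17. The median correlation of an array with the others of its genotype was between 0.9869 and 0.9881 on ILK-deficient arrays, and between 0.9749 and 0.9853 on ILK-expressing arrays, with replicate 5 lowest. Ilk itself lay between 8.75 and 9.07 on ILK-deficient arrays and between 9.01 and 9.38 on ILK-expressing arrays, a difference of -0.23 (adjusted p = 0.253, limma). This probe set pools probes along the transcript, deleted part or not, so it does not check the genotypes. The defining keratinocyte markers Krt5, Krt14, Krt1 and Krt10 averaged between 13.12 and 14.05 on ILK-deficient arrays and between 13.35 and 14.12 on ILK-expressing arrays.

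Acta2, Synpo2, Pdlim3 and Myl9 were the members with the largest differences, and all 4 were higher in ILK-deficient epidermis. Tagln was higher by a small amount, and the other 5 genes, Myh11, Tpm1, Tpm2, Cnn1 and Cnn2, differed by 0.24 or less. By limma with an adjusted p under 0.05 over the 32046 probe sets tested, 5 of the 10 genes were called higher and 0 lower, where 2.81% of all probe sets tested were called higher and 0.97% were called lower. Every ILK-deficient array lay above every ILK-expressing array for the same 5 genes, and for 4.37% of all probe sets tested. Nothing is read from these counts, since the differences were known when the genes were chosen. The difference was above 0 for 9 of the 10 genes, with a median of 0.27 on the log2 scale against 0.0031 over all probe sets tested. Tagln reached the linear value of 50 on 5 ILK-deficient arrays and on 1 ILK-expressing array. It thus passed the filter through the genotype in which it was high, which favours a difference.

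The stretches of 250 bases ahead of the annotated start are shown for the 4 genes with the largest differences and for Cnn2, which had a small difference and an exact CArG box. They are from RefSeq on build GRCm38.p6, matched by symbol for 8 of the 10 genes (all but Tagln and Myh11). They come from chr19:34255374-34255623 on the minus strand (Acta2), chr3:123236150-123236399 on the minus strand (Synpo2), chr8:45885237-45885486 on the plus strand (Pdlim3), chr2:156775214-156775463 on the plus strand (Myl9) and chr10:79988350-79988599 on the plus strand (Cnn2). Each runs 5′ to 3′ along the gene's own strand, and capitals mark a CArG box, a CArG-like site in which exactly 1 of the bases between CC and GG is a C or a G instead of an A or a T, or an M-CAT motif (GGAATG, or CATTCC on the other strand).
Acta2: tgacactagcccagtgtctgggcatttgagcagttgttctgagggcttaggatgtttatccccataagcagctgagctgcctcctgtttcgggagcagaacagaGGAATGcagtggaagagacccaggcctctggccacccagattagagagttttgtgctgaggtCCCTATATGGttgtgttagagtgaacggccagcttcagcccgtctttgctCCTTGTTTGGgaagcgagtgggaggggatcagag
Synpo2: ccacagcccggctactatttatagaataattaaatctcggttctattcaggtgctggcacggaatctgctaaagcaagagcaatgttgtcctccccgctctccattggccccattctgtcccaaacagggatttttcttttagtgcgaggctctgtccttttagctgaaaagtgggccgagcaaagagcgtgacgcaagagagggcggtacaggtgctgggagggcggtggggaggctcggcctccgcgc
Pdlim3: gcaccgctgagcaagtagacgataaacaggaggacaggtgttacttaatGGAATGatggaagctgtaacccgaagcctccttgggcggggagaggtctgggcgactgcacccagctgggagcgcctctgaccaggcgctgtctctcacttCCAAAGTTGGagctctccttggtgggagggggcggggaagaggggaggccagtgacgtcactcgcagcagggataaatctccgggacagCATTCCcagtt
Myl9: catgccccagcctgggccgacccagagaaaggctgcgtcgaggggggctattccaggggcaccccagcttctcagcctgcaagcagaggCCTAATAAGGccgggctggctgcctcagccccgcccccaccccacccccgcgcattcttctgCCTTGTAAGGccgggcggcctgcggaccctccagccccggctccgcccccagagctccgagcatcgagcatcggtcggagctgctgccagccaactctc
Cnn2: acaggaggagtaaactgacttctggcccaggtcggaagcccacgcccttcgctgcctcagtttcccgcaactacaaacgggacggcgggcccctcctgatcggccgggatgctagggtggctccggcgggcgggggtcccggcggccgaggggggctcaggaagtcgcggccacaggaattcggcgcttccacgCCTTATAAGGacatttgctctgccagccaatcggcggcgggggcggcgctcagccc
Acta2 held CArG-like sites that begin at -84 and -34 and an M-CAT at -146, counted from the annotated start. For every matched gene but Cnn2 and Pdlim3, the start used lies inside the RefSeq span of the gene, so the stretch overlaps that span. The Acta2 sites all lie within the span of Acta2 (chr19:34240336-34255585). Myl9 held an exact CArG box at -161 and a CArG-like site at -99, and Pdlim3 held a CArG-like site at -100 and M-CATs at -201 and -11. Cnn2 held an exact CArG box at -56. Synpo2, whose difference was the second largest of the 10, held no match in this window.

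**Figure D1:**
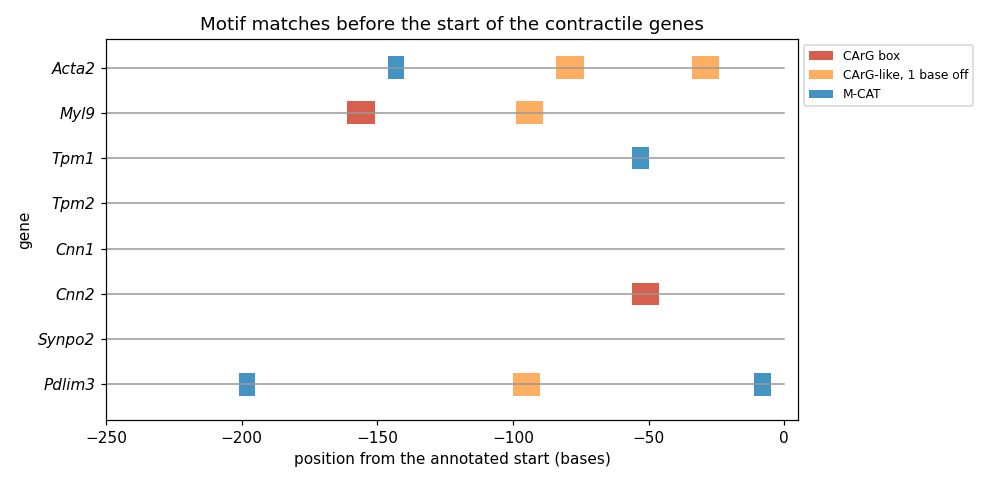
Position of motif matches in the 250 bases before the annotated start of the 8 genes matched, in bases from the start. Grey lines are the stretches searched, and coloured boxes are the CArG box, the CArG-like site 1 base off it and M-CAT. Tpm2, Cnn1 and Synpo2 have no match.

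Among the other stretches, Tpm1 held an M-CAT at -56, and Tpm2 and Cnn1 held no match. A CArG box or a CArG-like site was thus present in 4 of the 8 stretches and an M-CAT in 3. Over all 32851 RefSeq promoters cut to the same 250 bases, 8.59% held a CArG box or a CArG-like site, 1.47% held an exact CArG box and 12.6% held an M-CAT. The CArG box and the CArG-like site were read as patterns that are the same on both strands, and no site overlapped another in the 8 stretches. A match is a run of letters and not a measured binding site.

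Acta2 is the actin of smooth muscle and myofibroblasts. Its log2 values were 10.39, 10.59, 9.48, 9.91 and 9.08 on ILK-deficient arrays, against 6.84, 7.20, 7.27, 7.16 and 7.22 on ILK-expressing arrays. The genotypes did not overlap, and the lowest ILK-deficient array lay far above the highest ILK-expressing array. The means were 9.89 ± 0.625 in ILK-deficient and 7.14 ± 0.172 in ILK-expressing epidermis (SD, n = 5 each), a difference of 2.75, or 6.74-fold. The ILK-deficient arrays spread much more widely than the ILK-expressing arrays, and ILK-expressing replicate 1 lay below the other 4 of its genotype. In RNA of whole tissue, more cells that carry a transcript and more transcript per cell cannot be told apart, here and for each gene below.

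Myl9, the regulatory light chain through which smooth muscle and nonmuscle myosin II is switched on, had log2 values of 7.31, 7.78, 6.78, 6.65 and 7.06 on ILK-deficient arrays, against 6.07, 6.17, 6.28, 6.28 and 6.34 on ILK-expressing arrays. All 5 ILK-deficient arrays lay above all 5 ILK-expressing arrays, with replicates 2 and 1 highest, as for Acta2. The means were 7.11 ± 0.451 and 6.23 ± 0.108 (ILK-deficient and ILK-expressing, SD, n = 5 each), a difference of 0.89, or 1.85-fold. Myh11, the smooth muscle myosin heavy chain that works with such a light chain, had log2 values of 6.09, 5.95, 6.12, 6.11 and 6.09 on ILK-deficient arrays, against 6.17, 6.12, 6.06, 6.23 and 6.05 on ILK-expressing arrays. These values were low on every array and the genotypes overlapped, with a difference of -0.05.

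Tropomyosins are coiled rods that run along the actin filament and set which myosins and binding proteins reach it. Tpm2 had log2 values of 7.92, 7.95, 7.57, 7.68 and 7.41 on ILK-deficient arrays, against 7.31, 7.30, 7.49, 7.48 and 7.75 on ILK-expressing arrays. ILK-deficient replicates 1 and 2 lay above every ILK-expressing array, while replicate 5 of each genotype ran against the difference of 0.24. Tpm1 had log2 values of 10.36, 10.54, 10.24, 10.23 and 10.20 on ILK-deficient arrays, against 10.03, 10.06, 10.14, 10.54 and 10.45 on ILK-expressing arrays. ILK-expressing replicates 1, 2 and 3 lay below all ILK-deficient arrays and replicates 4 and 5 did not, with a difference of 0.07. Among the arrays whose description label has the prefix D, and not D' or C' (4 ILK-deficient and 3 ILK-expressing), the difference was 0.27 for Tpm1 and 0.41 for Tpm2.

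Calponins and transgelin share the calponin homology fold and bind along actin filaments, where calponin slows the myosin motor. Cnn1, the calponin of differentiated smooth muscle, had log2 values of 6.26, 5.83, 5.94, 6.04 and 5.89 on ILK-deficient arrays, against 5.87, 6.02, 5.82, 6.04 and 5.83 on ILK-expressing arrays. Its values were low throughout and the genotypes overlapped, with a difference of 0.08. Cnn2, the calponin of many nonmuscle cells, had log2 values of 11.59, 11.88, 11.51, 11.61 and 11.63 on ILK-deficient arrays, against 11.40, 11.42, 11.65, 11.43 and 11.61 on ILK-expressing arrays. ILK-deficient replicate 2 was the highest array, and the genotypes overlapped with a difference of 0.14. Tagln, which encodes transgelin, an early marker of smooth muscle, had log2 values of 5.92, 5.80, 5.88, 5.81 and 5.78 on ILK-deficient arrays, against 5.56, 5.64, 5.36, 5.65 and 5.53 on ILK-expressing arrays. The genotypes did not overlap, but all 10 values lay close to the filter (5.64 on the log2 scale), and the difference was 0.29, or 1.22-fold.

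Synpo2, known as myopodin, bundles actin at Z-discs and stress fibers. It had log2 values of 9.45, 9.46, 8.58, 9.28 and 9.39 on ILK-deficient arrays, against 7.00, 6.83, 6.84, 6.59 and 6.92 on ILK-expressing arrays. The genotypes were far apart, although ILK-deficient replicate 3 lay below the other 4 ILK-deficient arrays. The means were 9.23 ± 0.372 in ILK-deficient and 6.83 ± 0.153 in ILK-expressing epidermis (SD, n = 5 each), a difference of 2.40, or 5.27-fold. Pdlim3, the actinin-associated LIM protein of muscle Z-discs, had log2 values of 7.75, 8.38, 7.13, 7.69 and 8.13 on ILK-deficient arrays, against 6.38, 6.74, 6.98, 6.32 and 6.86 on ILK-expressing arrays. ILK-deficient replicate 3 was again lowest and came close to ILK-expressing replicate 3, without overlap. The means were 7.82 ± 0.476 and 6.66 ± 0.291 (ILK-deficient and ILK-expressing, SD, n = 5 each), a difference of 1.16, or 2.24-fold.

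**Figure D2:**
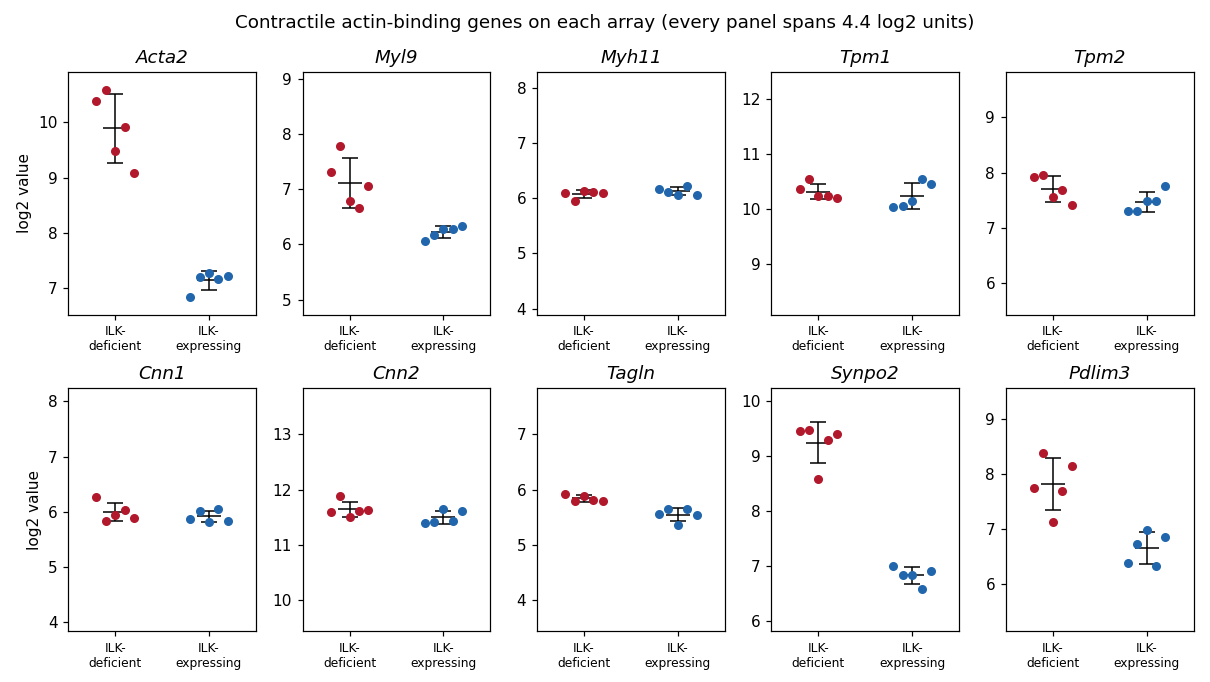
Log2 values of the 10 genes on each array (points, in replicate order from left to right), with bars for the genotype's mean and SD (n = 5). Every panel spans the same number of log2 units, and Acta2, Synpo2, Pdlim3, Myl9 and Tagln show no overlap between ILK-deficient (left) and ILK-expressing (right) arrays.

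Without ILK-expressing replicate 5, the array with the lowest correlation to its genotype, the differences were 2.78 for Acta2, 2.42 for Synpo2, 1.21 for Pdlim3, 0.91 for Myl9 and 0.29 for Tagln. Among the arrays with description prefix D alone they were 2.99, 2.30, 1.04, 0.96 and 0.33 for the same genes in the same order. What the prefix stands for is not given in the sources used here. The genotypes did not overlap for these 5 genes, so no choice of arrays could bring a difference to 0 or below. The sizes were near those over all 10 arrays.

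Several of the 10 genes were high or low together on single ILK-deficient arrays. ILK-deficient replicate 2 was the highest of its genotype for 7 of the 10 genes, and these were Acta2, Myl9, Tpm1, Tpm2, Cnn2, Synpo2 and Pdlim3. It was the lowest for 2 others, Myh11 and Cnn1. How often it was the highest over all probe sets tested was not counted. Replicate 1 lay above the ILK-deficient mean for 8 genes, and replicate 3 lay below it for 8. Replicate 5 was the lowest of its genotype for 4 genes, with Acta2 at 0.81 below the ILK-deficient mean (a deviation of -0.81), but its Pdlim3 lay 0.32 above that mean. No count of this kind was tested. The points share their array, and the summed linear values of the 9 vascular smooth muscle and pericyte markers listed were 3668, 4855, 3394, 4007 and 4607 on ILK-deficient replicates 1 to 5. That sum was highest on replicate 2 and lowest on replicate 3, and most of it came from Mcam, Notch3 and Cspg4. Of the defining markers, Rgs5 at 5.94 and Abcc9 at 5.77 were lowest of the ILK-deficient arrays on replicate 2, and Pdgfrb at 6.04 on replicate 5. None of these reached a linear value of 100 on any array, so nothing is read from their order across arrays. The part of these markers in the members' spread was not tested.

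**Figure D3:**
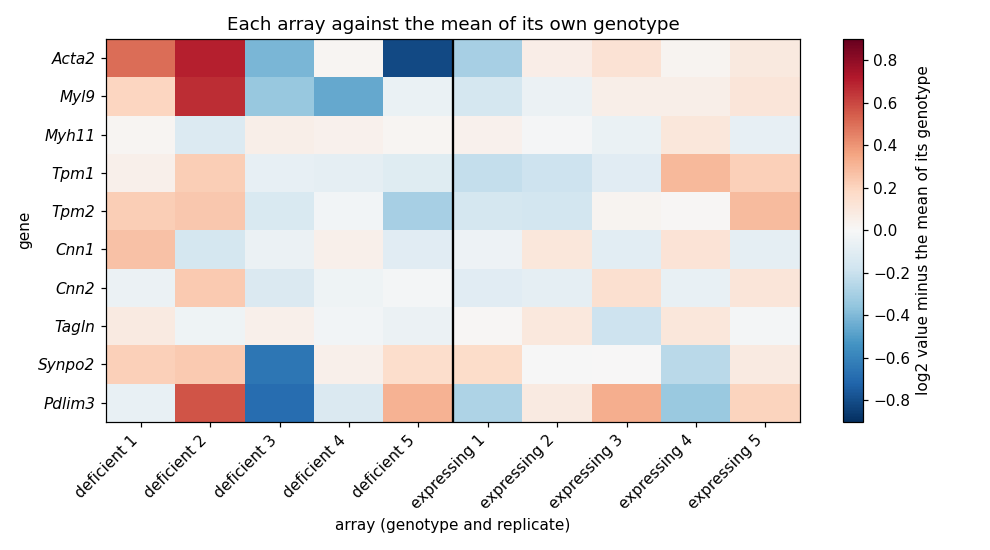
Log2 value of each gene minus the mean of its own genotype, for the 5 ILK-deficient arrays (left of the line) and the 5 ILK-expressing arrays (right). ILK-deficient replicate 2 is above its mean for Acta2 (0.70), Myl9 (0.67) and Pdlim3 (0.56), and replicate 3 is below it for Pdlim3 (-0.69) and Synpo2 (-0.65).

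Over the tested probe sets with 1 symbol, likeness to Acta2 was measured as the mean absolute difference from Acta2 over the 10 arrays, after each gene's log2 values were centred on its own mean, so that a small value means a similar pattern. Synpo2 was the nearest of all at 0.355, followed outside the 10 genes by Tslp, a cytokine that keratinocytes release, at 0.363. Next came Cpa6, a carboxypeptidase, at 0.554, Dusp10, a phosphatase of stress-activated kinases, at 0.586, Sfrp2, a secreted Wnt modulator, at 0.588, and Map1b, a microtubule-associated protein, at 0.594. Tslp had log2 values of 10.17, 9.18, 7.94, 8.05 and 8.03 on ILK-deficient arrays, against 6.21, 6.22, 6.24, 6.00 and 5.67 on ILK-expressing arrays. Its 2 highest arrays were ILK-deficient replicates 1 and 2, as for Acta2. Of the other members, Pdlim3 stood at 0.862 and Myl9 at 0.933 from Acta2, and the remaining 6 stood between 1.23 and 1.40. This distance is a description over 10 arrays and uses the same difference between genotypes as the values above.

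Other genes of the same system were listed by role, outside the 10 genes, and these were tested with limma (adjusted p over all 32046 probe sets). Of 72 genes listed, 69 were measured and 68 passed the filter, and 10 of these rose in ILK-deficient epidermis and none fell (2.81% and 0.97% of all probe sets tested). Of the probe sets tested, 19823 carry 1 symbol, as that of every listed gene does. The share called among those was not computed, so no excess is read from the count of 10. The lists, 5 in all, were written with earlier results of these data known, and 4 of them, with 7 of the genes that rose, are described below.

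The other actins did not pass the test. Actb, the cytoplasmic actin of all cells, differed by -0.01 (adjusted p = 0.966), and Actc1, the cardiac actin, by 0.02 (adjusted p = 0.946). Outside the rule for naming genes, and chosen after their values were seen, Acta1 of skeletal muscle differed by 0.20 (adjusted p = 0.607) and Actg2 of visceral smooth muscle by 0.06 (adjusted p = 0.865). The median of the 4 actins was 0.04, and Actg1 had no probe set of its own. None of these 4 isoforms showed a difference near that of Acta2, although the difference between them and Acta2 was not tested.

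Of 16 tested genes of contractile and anchoring proteins, 4 rose and none fell, with a median difference of 0.18. Filip1l, a filamin A interacting protein, had log2 values of 9.73, 9.51, 9.42, 9.30 and 9.64 on ILK-deficient arrays, against 8.74, 8.67, 8.84, 8.84 and 8.93 on ILK-expressing arrays, a rise of 0.72 (standard error 0.0887, adjusted p = 0.00309). Csrp1, a LIM protein of smooth muscle that binds actinin, had log2 values of 12.80, 12.81, 12.89, 12.67 and 12.90 on ILK-deficient arrays, against 12.04, 12.07, 12.15, 12.30 and 12.05 on ILK-expressing arrays, a rise of 0.69 (standard error 0.0706, adjusted p = 0.00164). The genotypes did not overlap for either gene. Filip1l has 2 probe sets, and with their mean its rise was 0.31. Flna, the actin crosslinker filamin A, rose by 0.45 (adjusted p = 0.025), and Nexn, the Z-disc protein nexilin, rose by 0.34 (adjusted p = 0.0419). Flna lost its call in 5 of 20 alternatives (without ILK-deficient replicate 1 or 5 or ILK-expressing replicate 2, on the arrays of prefix D alone and by the methods' analysis of variance), and Nexn lost its call in 15 of 19 alternatives. Myl6, an essential light chain of myosin, differed by -0.08 (adjusted p = 0.822), and Vcl, the adhesion protein vinculin, by 0.18 (adjusted p = 0.245). Named after their values were seen, the smooth muscle genes Lmod1, an actin nucleator, and Mylk, the myosin light chain kinase, differed by 0.02 (adjusted p = 0.976) and by 0.05 (adjusted p = 0.863), and Des, the muscle intermediate filament desmin, did not pass the filter.

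Of 18 paralogs of the 10 genes, Synpo alone passed, the synaptopodin of podocytes and neurons and a relative of Synpo2. Its log2 values were 7.03, 6.82, 6.41, 6.57 and 6.76 on ILK-deficient arrays, against 6.12, 6.33, 6.15, 5.78 and 6.10 on ILK-expressing arrays, a rise of 0.62 (standard error 0.129, adjusted p = 0.0266). The genotypes did not overlap, but the call was lost in 9 of 19 alternatives. Tpm3, a tropomyosin of nonmuscle and slow muscle cells, differed by -0.20 (adjusted p = 0.229), and Tagln2, a transgelin of many cells, by 0.18 (adjusted p = 0.327). The median over the 18 paralogs was 0.04, and the difference was above 0 for 14 of them. Without overlap of the genotypes, 2 of the 18 were higher, Synpo among them, and 1 was lower. Over all probe sets tested 4.37% were higher without overlap, and the share lower without overlap was not counted. Probe sets of genes with near-identical copies, such as Actb, Myl6 and Tpm3, can also take RNA of those copies.

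**Figure D4:**
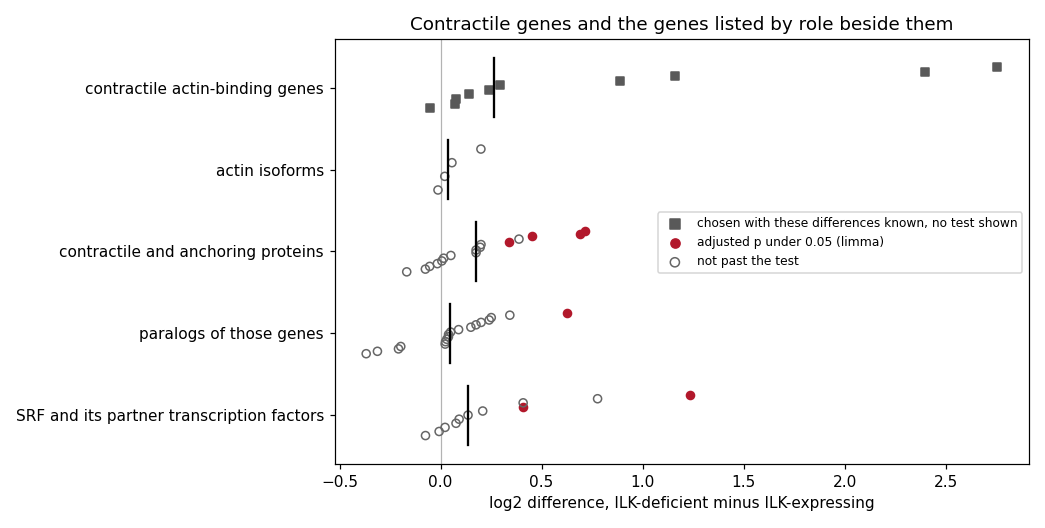
Log2 difference (ILK-deficient minus ILK-expressing) of the 10 contractile genes (squares, no test) and of the tested genes of 4 lists by role (circles, filled where the adjusted p was under 0.05 by limma), with the median of each list as a black line. The filled circles, 7 in all, lie to the right of 0.

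SRF binds the CArG box itself and works with myocardin family coactivators at contractile genes and with ternary complex factors at growth-responsive genes. Of 11 tested genes of SRF and its partner factors, 2 rose, and both encode ternary complex factors, while Elk1, the other such factor listed, differed by -0.01 (adjusted p = 0.989). Elk3 had log2 values of 8.33, 8.16, 8.40, 8.02 and 8.24 on ILK-deficient arrays, against 6.78, 7.04, 6.98, 6.99 and 7.20 on ILK-expressing arrays, a rise of 1.23 or 2.35-fold (standard error 0.0931, adjusted p = 0.00034). All ILK-deficient arrays were well above all ILK-expressing arrays. Elk4 rose by 0.41 (adjusted p = 0.00837). Of the coactivators, Mrtfb differed by 0.41 (adjusted p = 0.213), with ILK-deficient arrays between 10.79 and 11.61 and ILK-expressing arrays between 10.48 and 10.87. Gata6, a zinc finger factor of smooth muscle and sebaceous duct, differed by 0.78 without overlap of the genotypes (adjusted p = 0.0586, a call in 4 of 20 alternatives). Klf4, a factor that represses smooth muscle genes in muscle cells and is abundant in upper epidermis, differed by -0.07 (adjusted p = 0.867). Elk1, Gata6, Srf, Mrtfa and Myocd were named after their values were seen. Srf differed by 0.21 (adjusted p = 0.446), Mrtfa by 0.09 (adjusted p = 0.692) and Myocd, the coactivator of smooth and cardiac muscle, by 0.02 (adjusted p = 0.95), with Myocd close to the filter on every array.

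Since contractile genes also mark smooth muscle, pericytes and fibroblasts, markers of other cells that separated epidermis can hold were listed too. Of the 9 markers of vascular smooth muscle and pericytes, Cspg4, a proteoglycan of pericytes also known from stem cells of human epidermis, passed the test. Its log2 values were 9.33, 9.41, 9.04, 9.09 and 9.78 on ILK-deficient arrays, against 7.90, 8.13, 7.62, 7.84 and 8.82 on ILK-expressing arrays, a rise of 1.27 (standard error 0.217, adjusted p = 0.0124). The genotypes did not overlap, with ILK-expressing replicate 5 nearest to the ILK-deficient arrays. Mcam, an adhesion molecule of mural and endothelial cells named after its values were seen, differed by 0.69 (adjusted p = 0.0566). It was called in 5 of 20 alternatives. The defining markers Rgs5, Pdgfrb and Abcc9 were low on all arrays, with means of 6.02, 6.14 and 5.86 on ILK-deficient arrays, against 6.02, 6.13 and 5.85 on ILK-expressing arrays. The summed linear level of the 9 markers was 3394 to 4855 on ILK-deficient arrays and 2614 to 3529 on ILK-expressing arrays. Most of that level came from Mcam, Notch3 and Cspg4, and the other 6 markers differed by -0.07 to 0.03. The part of such cells in the higher Acta2 was not tested.

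None of the 8 tested fibroblast markers passed, and their summed linear level was 11259 to 14163 on ILK-deficient arrays and 8365 to 13976 on ILK-expressing arrays, most of it from Postn and Dcn. Dcn, the matrix proteoglycan decorin, averaged 12.17 on ILK-deficient and 11.41 on ILK-expressing arrays and was lowest on ILK-expressing replicate 4 at 9.74, a difference of 0.77 (adjusted p = 0.467). Col1a1 of type I collagen differed by 0.18 (adjusted p = 0.582) and Pdgfra by 0.08 (adjusted p = 0.864). Col1a2 of type I collagen, named after its values were seen, lay between 7.83 and 8.17 on ILK-deficient arrays and between 7.23 and 7.75 on ILK-expressing arrays, without overlap, a difference of 0.40 (adjusted p = 0.0777). None of the 6 endothelial markers passed (summed level 354 to 402 on ILK-deficient and 355 to 396 on ILK-expressing arrays). No endothelial marker reached a linear value of 100 on any array, so this sum lay near the low end of the signal. None of the 7 tested skeletal muscle markers passed (summed level over all 10 of that list 824 to 986 on ILK-deficient and 858 to 950 on ILK-expressing arrays). Of the 8 keratinocyte markers, Trp63, the transcription factor p63 of basal cells, rose by 0.35 (adjusted p = 0.0204) and Krt14 fell by 0.23 (adjusted p = 0.0452), calls lost in 7 and in 13 of 20 alternatives, and the summed level of the 8 markers was 67212 to 71135 on ILK-deficient and 66711 to 74654 on ILK-expressing arrays.

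**Figure D5:**
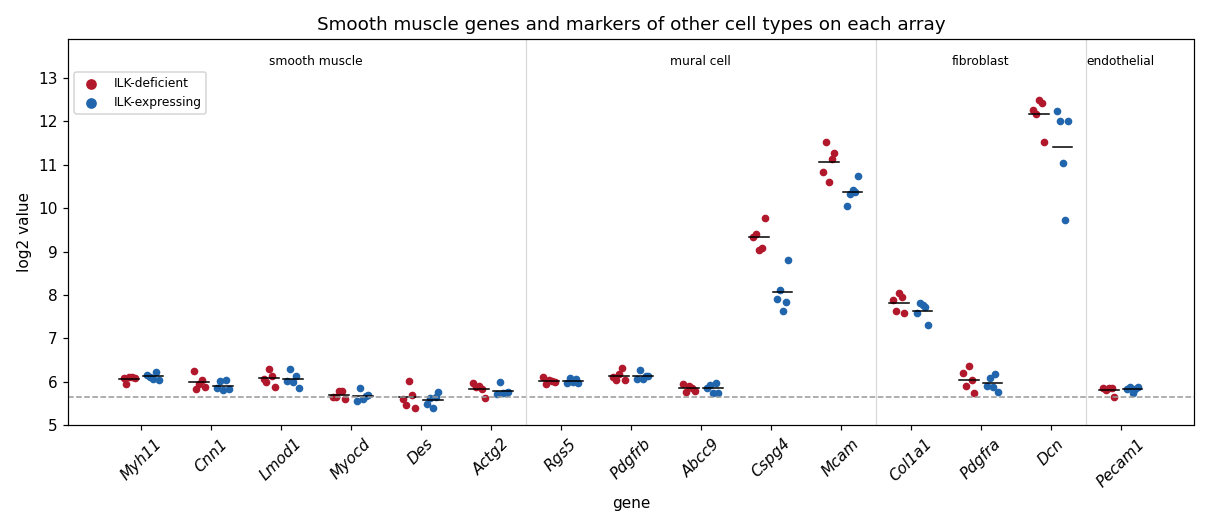
Log2 values of smooth muscle genes and of markers of mural cells, fibroblasts and endothelium on each array, ILK-deficient left and ILK-expressing right of each pair, with means as short lines and the filter at a linear value of 50 as a dashed line. Myh11, Cnn1, Lmod1, Myocd, Des, Actg2, Rgs5, Pdgfrb, Abcc9, Pdgfra and Pecam1 lie close to the filter in both genotypes, and Cspg4 separates the genotypes.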

How the data were processed

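RNA of epidermis was hybridised to 10 arrays, 5 ILK-deficient and 5 ILK-expressing, with 1 array per mouse, and groups were taken from the labels. The deposited log2 values had been background-adjusted, quantile-normalized and summarised per probe set by the authors, whose methods mention GC-RMA and also RMA without saying which gave the table. The labels name Partek and RMA. The number of arrays limits the precision.

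The 10 genes and all lists were chosen with earlier results of these data known. Probe sets were named where the platform annotation gave 1 symbol (21789, with several symbols for 1621 and none for 12146). A gene with several probe sets was represented by that with the highest mean. Of 35556 probe sets, 32046 reached a linear value of 50 on at least 5 arrays. Genotypes were compared with limma 3.58.1 (lmFit and eBayes) in R 4.3.3, without covariates, and the Benjamini-Hochberg adjustment ran over all probe sets tested. The comparison was tested on simulated arrays with independent normal noise for each probe set. These hold no deviation that genes of an array share, so they do not cover genes that move together.

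Named were the 10 genes, up to 4 genes of each list by role past the test with the largest change and up to 2 with the highest mean not past it, the defining markers of each cell type with up to 3 others past the test, and the 5 genes nearest to Acta2. Of the 5 lists by role, 1 is counted in the totals and not otherwise reported here. Promoter stretches are from RefSeq (GRCm38.p6). Alternatives changed the filter, the normalization, the fit, the block, the probe sets and the arrays.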

Additional observations from a re-analysis of the deposited data

Results flagged for a closer look

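In 9 of 120 groups of 5 arrays of the genes named, the highest or the lowest array lay apart from the other 4 by Dixon's criterion at 5 arrays, which chance meets in about 1 of 20 groups. Among the contractile genes, Synpo2 was at 8.58 on ILK-deficient replicate 3 (9.28 to 9.46 on the other 4), Myh11 at 5.95 on ILK-deficient replicate 2 (6.09 to 6.12) and Acta2 at 6.84 on ILK-expressing replicate 1 (7.16 to 7.27). Among the actins, Acta1 was at 7.04 on ILK-expressing replicate 3 (6.93 to 6.95) and Actg2 at 6.00 on ILK-expressing replicate 2 (5.71 to 5.76). Pecam1, an endothelial adhesion molecule, was at 5.65 on ILK-deficient replicate 5 (5.82 to 5.86), Tnnt3, a skeletal muscle troponin, at 7.64 on ILK-expressing replicate 3 (7.70 to 7.71), Col1a2 at 7.23 on ILK-expressing replicate 5 (7.70 to 7.75), and Map1b at 10.52 on ILK-deficient replicate 5 (9.58 to 9.78).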

How the results depend on the processing

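Of the 10 contractile genes, 5 were called over all arrays, 2 with a replicate block, 3 with the description prefix as a block, 2 on the arrays of prefix D alone, and 3 by the methods' analysis of variance, with 2 to 4 when 1 array was left out. Acta2 and Synpo2 were called in the main comparison and in all 20 alternatives. The alternatives reuse the arrays whose differences were known when the genes were chosen, so nothing is read from these calls either. The count was 2 without ILK-deficient replicate 5 or ILK-expressing replicate 4, and 3 without ILK-deficient replicate 1 or ILK-expressing replicate 1 or 3. The probe sets called were 1211 over all arrays, 608 with the replicate block, 294 on prefix D alone, and 686 by the analysis of variance after adjustment (780 at 1.5-fold or more and an unadjusted p under 0.05), with 597 to 1010 when 1 array was left out (721, 757 and 597 without ILK-deficient replicate 1, 2 or 5, and 798 and 650 without ILK-expressing replicate 2 or 4). With the description prefix as a block they were 942, so the total over all probe sets fell in each of these settings as well. With the mean of all probe sets of a gene, 1696 genes were called, higher or lower. The same-numbered arrays did not deviate together (correlations of -0.30 to 0.11). Correlations of this kind cannot show whether mice of the same number were paired. The genes by role that were higher, 10 in all, were 6 by the analysis of variance, 5 on prefix D alone, 16 with the mean of all probe sets of a gene, and 6 to 9 when 1 array was left out (6 without ILK-deficient replicate 1), and none was called lower in any alternative. Markers of cells other than keratinocytes called higher were 1, or 2 with a linear filter of 100 or with quantile normalization and 3 with the mean of probe sets, with 1 to 2 when 1 array was left out (2 without ILK-deficient replicate 3 or ILK-expressing replicate 5). No called difference changed sign. With the linear filter of 100, 7 of the 10 contractile genes remained, since Myh11, Tagln and Cnn1 lie near the low end of the signal.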
